A study of Homo sapiens with 6 samples.

Results

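The 10 genes described here encode the argonautes AGO1, AGO2, AGO3 and AGO4 and the proteins that make microRNAs and hand them on, namely DROSHA, DGCR8, XPO5, DICER1, TARBP2 and TNRC6A. They were chosen by name, for what their proteins do, from the 29804 gene symbols of the count table. Earlier results of these data were known when they were chosen. All 10 were found in the table, and all 10 passed the filter on low counts. RNA-seq had been performed on 22Rv1 cells, a prostate carcinoma epithelial line, in 3 groups of 2 libraries. WT cells were untreated and were taken at week 0. AM (age matched) cells were taken after 6 weeks of growth with no drug. The 6WP cells were given phleomycin, a radiomimetic drug that breaks DNA, at 1 µg/ml on each week day of the same 6 weeks. The label for genotype was WT in all 3 groups, so the groups differed in time in culture and in drug. All of them come from 1 cell line.

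MicroRNAs are short RNAs that lower the output of the mRNAs they pair with. DROSHA, with its RNA-binding partner DGCR8, cuts a hairpin out of the primary transcript in the nucleus, and XPO5 (exportin 5) carries the hairpin to the cytoplasm. DICER1 and its partner TARBP2 cut the hairpin to a duplex, and 1 strand is loaded into an argonaute with the help of HSP90 and HSP70 chaperones. The loaded argonaute finds mRNAs through the seed of the microRNA, which is bases 2 to 8, and binds TNRC6A (a GW182 protein), which brings in the deadenylases and decapping enzymes. AGO2 is the argonaute best known for cutting a fully paired target itself.

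Mature microRNAs were not measured, but transcripts listed as their hosts were. Of these, IARS2 had 0 hairpins within it on its own strand, and MIR22HG held mature sequences but 0 whole hairpins. Among 25 tested host transcripts, 6 were called between 6WP and AM cells (24%, beside 21.3% of all tested genes) and 4 between AM and WT cells (16%, beside 17.7%), shares near the background. Between 6WP and WT cells 0 were called (beside 3.00%), where 5 had an unadjusted p under 0.05. The DESeq2 Wald test called 1 (beside 8.48% of all tested genes). The exact and likelihood ratio tests of edgeR called 2 each (beside 9.67% and 10.2%). Other loci that carry the same sequences or seeds were not searched for. The mature sequences carried by the hosts with the largest differences are printed below, from RefSeq on GRCh38.p14, with the seed in capitals, to show which seeds lie within those hosts.
hsa-miR-99a-5p: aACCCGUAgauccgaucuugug
hsa-let-7c-5p: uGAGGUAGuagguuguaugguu
hsa-miR-125b-5p: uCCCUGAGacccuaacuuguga
hsa-miR-106b-5p: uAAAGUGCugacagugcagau
hsa-miR-93-5p: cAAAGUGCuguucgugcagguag
hsa-miR-25-3p: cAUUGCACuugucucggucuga
hsa-miR-15b-5p: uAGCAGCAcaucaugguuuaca
hsa-miR-16-5p: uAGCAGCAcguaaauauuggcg
hsa-miR-33b-5p: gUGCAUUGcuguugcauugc
hsa-miR-22-3p: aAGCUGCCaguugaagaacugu
hsa-miR-210-3p: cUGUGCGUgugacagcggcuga
The first 3 lie within the long noncoding RNA MIR99AHG, listed in the table under its older symbol LINC00478, on the plus strand. Their positions are chr21:16539101-16539122, chr21:16539838-16539859 and chr21:16590253-16590274, and their seeds differ from each other. The next 3 lie within MCM7 on the minus strand, at chr7:100094043-100094063, chr7:100093815-100093837 and chr7:100093571-100093592. Of these, miR-106b-5p and miR-93-5p share the seed AAAGUGC. The pair within SMC4, at chr3:160404607-160404628 and chr3:160404754-160404775 on the plus strand, shares the seed AGCAGCA. SREBF1 carries miR-33b-5p (chr17:17813897-17813916), MIR22HG carries miR-22-3p (chr17:1713914-1713935) and MIR210HG carries miR-210-3p (chr11:568112-568133), all on the minus strand.

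Library totals ranged from 21222201 to 35311945 counts, and the smallest amount taken as detectable, 3 counts, equalled 0.0850 to 0.141 CPM (counts scaled by library size and TMM factor). This floor covers counting error only. The epithelial keratins KRT8 and KRT18, EPCAM and the prostate marker KLK3 were detected in every library, KLK3 at 49.3 to 106.8 CPM and KRT18 at 310.6 to 352.9 CPM. PTPRC, CD3E, MS4A1, CDH5 and KRT5, which mark immune, endothelial and basal cells, were at 0 in all 6 libraries. Other markers of such cells were not. CD68, of the immune list, was at 2.31 to 3.66 CPM, and TP63, PECAM1, VWF and KRT14 reached at most 0.141 CPM. The 4 fibroblast markers summed to 2.98 to 3.84 CPM in WT, 1.74 to 2.80 CPM in AM and 2.61 to 4.23 CPM in 6WP cells, and their part in the results was not tested. The 6WP libraries stood further apart than the others. The median difference between replicates over the 10 genes, on the log2 scale, was 0.392 in 6WP cells, 0.181 in AM cells and 0.100 in WT cells, and over all tested genes it was 0.278, 0.129 and 0.121. Values below are therefore given for each library. In bulk RNA, fewer expressing cells and less RNA per cell cannot be told apart.

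AGO2 had the lowest levels in 6WP cells and the highest in WT cells, with no overlap among the 3 groups. It was read at 27.8 and 29.9 CPM in the WT libraries, 20.9 and 16.8 CPM in the AM libraries, and 15.2 and 14.3 CPM in the 6WP libraries. These values came from between 405 and 651 counts in a library. The 6WP replicates of AGO2 lay close together, differing by 0.0926 on the log2 scale, although these were the libraries in which most of the other genes differed most. In 6WP cells AGO2 was at 51.1% of the WT level (log2 fold change -0.97, standard error 0.15, edgeR quasi-likelihood test, adjusted p = 0.0203). AM cells, which never met the drug, already stood at 65.1% of the WT level (-0.62, standard error 0.15, adjusted p = 0.0287). Against AM cells, 6WP cells were at 78.4% (-0.35, standard error 0.15, adjusted p = 0.131), which did not pass the threshold of 0.05, although the unadjusted p lay under it. The comparisons of 6WP and of AM cells with WT cells share the WT libraries. Each of the 3 comparisons also used 1 estimate of spread from all 6 libraries.

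**Figure D1:**
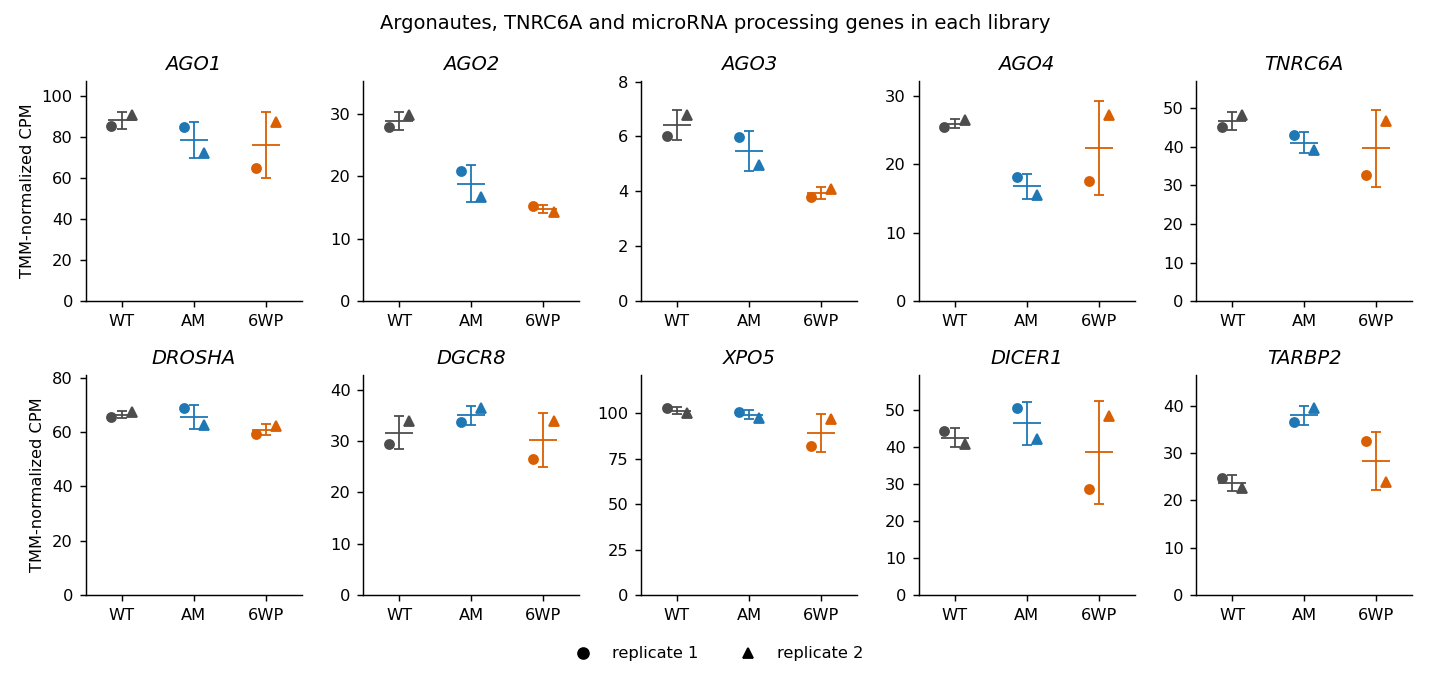
TMM-normalized CPM (vertical axes, starting at 0) of the 10 genes in WT, AM and 6WP cells, where circles and triangles are the 2 libraries of each group and the bar shows the mean with 1 SD. AGO2 steps down from 28.9 to 18.8 to 14.7 CPM in the mean, while in AGO4, DICER1 and TNRC6A the 6WP replicates lie far apart.

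AGO3 showed the next largest difference from WT cells, without passing the test. Its levels were 6.02 and 6.80 CPM in WT, 5.98 and 4.94 CPM in AM, and 3.80 and 4.09 CPM in 6WP cells. Both 6WP libraries lay below all others. The log2 fold change of 6WP against WT was -0.70 (standard error 0.20, adjusted p = 0.101), and without 1 library it lay from -0.78 to -0.61. Against AM cells it was -0.47 (adjusted p = 0.135).

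AGO4 separated the AM cells from the WT cells and was spread widely in the 6WP cells. It was at 25.4 and 26.4 CPM in WT, 18.1 and 15.5 CPM in AM, and 17.5 and 27.2 CPM in 6WP cells. One 6WP library thus lay at the AM level and the other at the WT level. AM cells differed from WT cells by -0.63 on the log2 scale (standard error 0.21, adjusted p = 0.0723), about as large as that of AGO2, but its standard error was larger. It was called with 7 of 19 other settings, the DESeq2 Wald test (adjusted p = 0.0439) among them. That test called 20.8% of all tested genes in AM against WT, beside 17.7% as reported. The 6WP cells gave -0.21 against WT (adjusted p = 0.582) and 0.42 against AM (adjusted p = 0.183).

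AGO1 did not pass in any comparison. Its levels were 85.4 and 91.1 CPM in WT, 84.8 and 72.4 CPM in AM, and 65.0 and 87.5 CPM in 6WP cells, and the 6WP range overlapped both others. The log2 fold changes were -0.17 for AM against WT, -0.21 for 6WP against WT and -0.04 for 6WP against AM, each with a standard error of 0.16. AGO4, AGO1 and AGO3 lie head to tail on the plus strand of chromosome 1 (GRCh38, GENCODE), at positions 35808016 to 35857890, 35869808 to 35930532 and 35930718 to 36072500, with 11917 and 185 bases between them. AGO2 lies apart, on the minus strand of chromosome 8 at positions 140520156 to 140635633. The 25 tested genes within 1 Mb of AGO1 include AGO3 and AGO4. Of these 25, 4 were called higher and 1 lower in AM against WT (beside 17.7% of all tested genes). In 6WP against AM, 2 were higher and 3 lower (beside 21.3%). Both counts lay near those shares. In 6WP against WT 0 were called, where the share of all tested genes was 3.00%. Of the 7 tested genes near AGO2, 1 was called, higher, in 6WP against AM (beside 21.3% of all tested genes). In either comparison with WT 0 were called (beside 3.00% for 6WP and 17.7% for AM). Their median log2 fold change was -0.03 in both. Single genes among the 7 lay from -0.81 to 0.65 in 6WP against WT and from -1.02 to 0.32 in AM against WT. AGO2 itself had -0.97 and -0.62. Whether AGO2 differed apart from its neighbours was not tested.

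The make-up of the argonaute pool was compared per base of exon, since the 4 transcripts differ in length. AGO1 held the largest share in every library, 52.7% and 52.9% in WT, 59.9% and 60.4% in AM, and 57.0% and 56.7% in 6WP cells. The share of AGO2 was 15.2% and 15.4% in WT, 13.1% and 12.4% in AM, and 11.8% and 8.19% in 6WP cells. The groups did not overlap for AGO2, and neither 6WP library reached the lowest WT share. AGO4 held 29.7% and 29.04% in WT, 24.2% and 24.4% in AM, and 29.0% and 33.4% in 6WP cells, so that the lower 6WP library was level with WT cells. AGO3 was the rarest, with 1.76% to 2.81%. AGO2 transcripts per AGO1 transcript came to 0.289 and 0.291 in WT, 0.219 and 0.205 in AM, and 0.207 and 0.144 in 6WP cells. The pool as a whole, summed over the 4 genes in CPM per kb of exon, was 11.6 and 12.2 in WT, 10.1 and 8.53 in AM, and 8.13 and 10.99 in 6WP cells. An exact two-sided permutation test of such shares, 2 libraries against 2, cannot give p below 0.333, so they stand as descriptions.

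**Figure D2:**
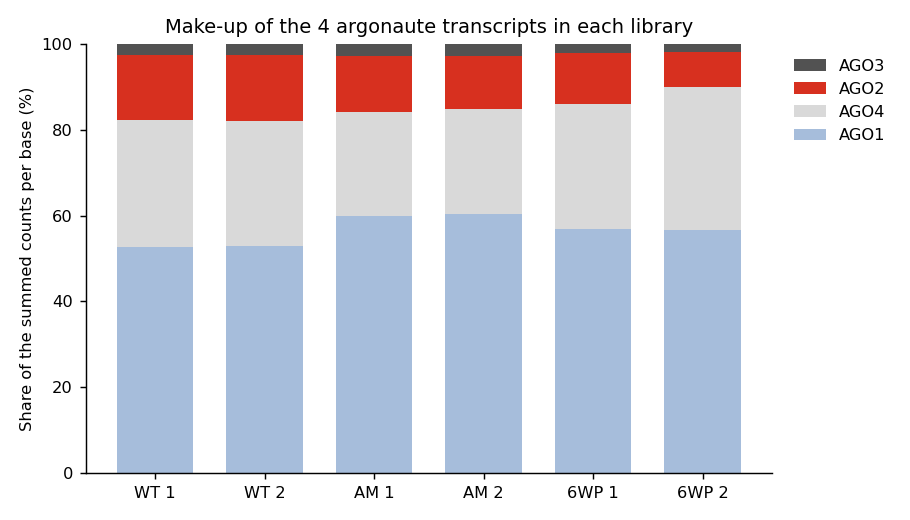
Share of each argonaute (percent, vertical axis) in the summed counts per base of exon of AGO1 to AGO4, in each of the 6 libraries. The AGO2 band narrows from 15.2% and 15.4% in WT cells to 11.8% and 8.19% in 6WP cells, while AGO1 keeps over 52% in all libraries.

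TNRC6A, the scaffold that links a loaded argonaute to mRNA decay, did not pass in any comparison. It was at 45.1 and 48.3 CPM in WT, 42.9 and 39.1 CPM in AM, and 32.6 and 46.6 CPM in 6WP cells. The log2 fold change of 6WP against WT was -0.24 (standard error 0.17, adjusted p = 0.449), and 1 of the 6WP libraries lay within the WT range. Its paralogs TNRC6B and TNRC6C had log2 fold changes of -0.08 and 0.05 in that comparison (adjusted p = 0.860 and 0.895). They had 0.18 and 0.05 in 6WP against AM and -0.26 and 0.00013 in AM against WT, and neither passed.

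DROSHA, DGCR8 and XPO5, of the nuclear steps and export, did not pass in any comparison. DROSHA was at 65.5 and 67.3 CPM in WT, 68.7 and 62.5 CPM in AM, and 59.3 and 62.3 CPM in 6WP cells. Both 6WP libraries lay just below all others, with a log2 fold change of -0.13 against WT (standard error 0.11, adjusted p = 0.527). DGCR8 was at 29.4 and 33.9 CPM in WT, 33.7 and 36.3 CPM in AM, and 26.5 and 33.9 CPM in 6WP cells, and its groups overlapped in all 3 comparisons. XPO5, the export receptor, was at 102.6 and 100.1 CPM in WT, 100.9 and 97.3 CPM in AM, and 81.8 and 96.6 CPM in 6WP cells. Its log2 fold change of 6WP against WT was -0.18 (standard error 0.12, adjusted p = 0.389). For AM against WT, DROSHA had -0.02, DGCR8 0.15 and XPO5 -0.03, none of which passed.

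In the cytoplasmic cutting step, DICER1 and its partner TARBP2 were compared in the same way. DICER1 was at 44.2 and 40.7 CPM in WT, 50.4 and 42.2 CPM in AM, and 28.7 and 48.4 CPM in 6WP cells. Its 6WP replicates differed by 0.750 on the log2 scale, the largest difference between replicates among the 10 genes. The log2 fold changes of -0.14 against WT and -0.26 against AM (adjusted p = 0.760 and 0.426) therefore rest on 1 low library. Without 6WP replicate 2 they were -0.59 and -0.72, and without 6WP replicate 1 they turned to 0.17 and 0.06.

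TARBP2, the double-stranded RNA-binding partner of DICER1, was the member that rose. It was read at 24.8 and 22.5 CPM in WT, 36.6 and 39.4 CPM in AM, and 32.6 and 23.9 CPM in 6WP cells. Both AM libraries lay above all others, and of the 6WP libraries one lay between the groups and the other within the WT range. AM cells were at 160.5% of the WT level (log2 fold change 0.68, standard error 0.16, edgeR adjusted p = 0.0289). In 6WP cells the log2 fold change was 0.26 against WT (adjusted p = 0.401) and -0.43 against AM (adjusted p = 0.0977, with the unadjusted p under 0.05). PRKRA (PACT), which can take the place of TARBP2 beside DICER1, had 0.17 in AM against WT, 0.15 in 6WP against WT and -0.02 in 6WP against AM, and did not pass.

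Counted over the 10 genes, 1 was called in 6WP against WT (AGO2, lower), where 3.00% of all tested genes were called. Between 6WP and AM cells the count was 0, with a background of 21.3%, and 2 of the 10 (AGO2 and TARBP2) had an unadjusted p under 0.05. The DESeq2 Wald test and the exact and likelihood ratio tests of edgeR also gave 0 in that comparison, beside 24.3%, 26.7% and 27.4% of all tested genes. In AM against WT, 2 were called, AGO2 lower and TARBP2 higher, where 17.7% of all tested genes were called. The median log2 fold change of the 10 genes was -0.10 in AM against WT, -0.20 in 6WP against WT and -0.18 in 6WP against AM cells, beside -0.002, 0.01 and 0.05 over all tested genes. In each comparison of 6WP cells, with WT and with AM cells, 9 of the 10 had a negative sign. Of all 14672 tested genes, 7079 had a negative sign in 6WP against WT and 6708 in 6WP against AM. These comparisons share the 6WP libraries, of which replicate 1 held the lower level of 8 genes, the exceptions being AGO2 and TARBP2.

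**Figure D3:**
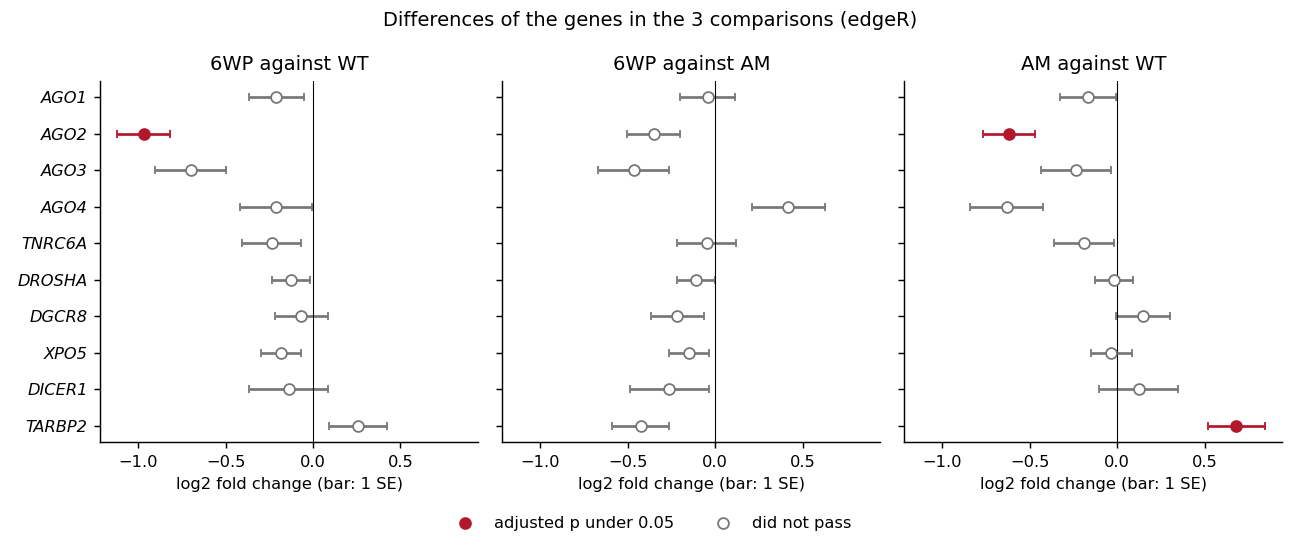
Log2 fold changes (horizontal axes) of the 10 genes in the 3 comparisons, with bars of 1 standard error; filled points passed an adjusted p of 0.05 (edgeR). AGO2 passes in both comparisons with WT cells and TARBP2 in AM against WT, and no gene passes in 6WP against AM.

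The counts depended on which 6WP library was kept. Without 6WP replicate 2, 8 of the 10 were called in 6WP against WT, 7 of them lower and TARBP2 higher, and the exceptions were DROSHA and DGCR8. In that fit 26% of all tested genes were called. Without 6WP replicate 1, the called genes were AGO2 and AGO3, beside 25.2% of all tested genes. Against AM cells the counts were 4 without replicate 2 (DGCR8, XPO5, DICER1 and TNRC6A) and 3 without replicate 1 (AGO2, AGO4 and TARBP2), where 33.4% and 45.8% of all tested genes were called. In these fits the lone 6WP library was assumed to vary like the other groups. AGO2 passed in 6WP against WT either way, with adjusted p = 0.000252 without replicate 2 and 0.000181 without replicate 1.

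Transcript length moved with the differences from WT cells. Among the tested genes with a transcript in GENCODE, split by length into 3 equal groups, those with the shortest transcripts had a median log2 fold change of 0.163 in AM against WT, the middle group 0.0212 and the longest group -0.137. In 6WP against WT the medians were 0.105, 0.0104 and -0.0771. In 6WP against AM the order was the opposite, with -0.0193, 0.0366 and 0.0754. Of the 10 genes, 8 belonged to the longest group, DGCR8 to the middle and TARBP2 to the shortest. The longest transcript of AGO2 has 14595 bases, and that of TARBP2 has 1855. With a length term in the model, AGO2 had -0.77 in 6WP against WT (adjusted p = 0.0403) and -0.33 in AM against WT (adjusted p = 0.157), so that only the first was still called. TARBP2 kept its call in AM against WT (0.51, adjusted p = 0.0321). With the GC content of the transcripts in place of length, AGO2 had -0.89 and -0.55 (adjusted p = 0.0295 and 0.0365), and TARBP2 had 0.55 in AM against WT (adjusted p = 0.0467).

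**Figure D4:**
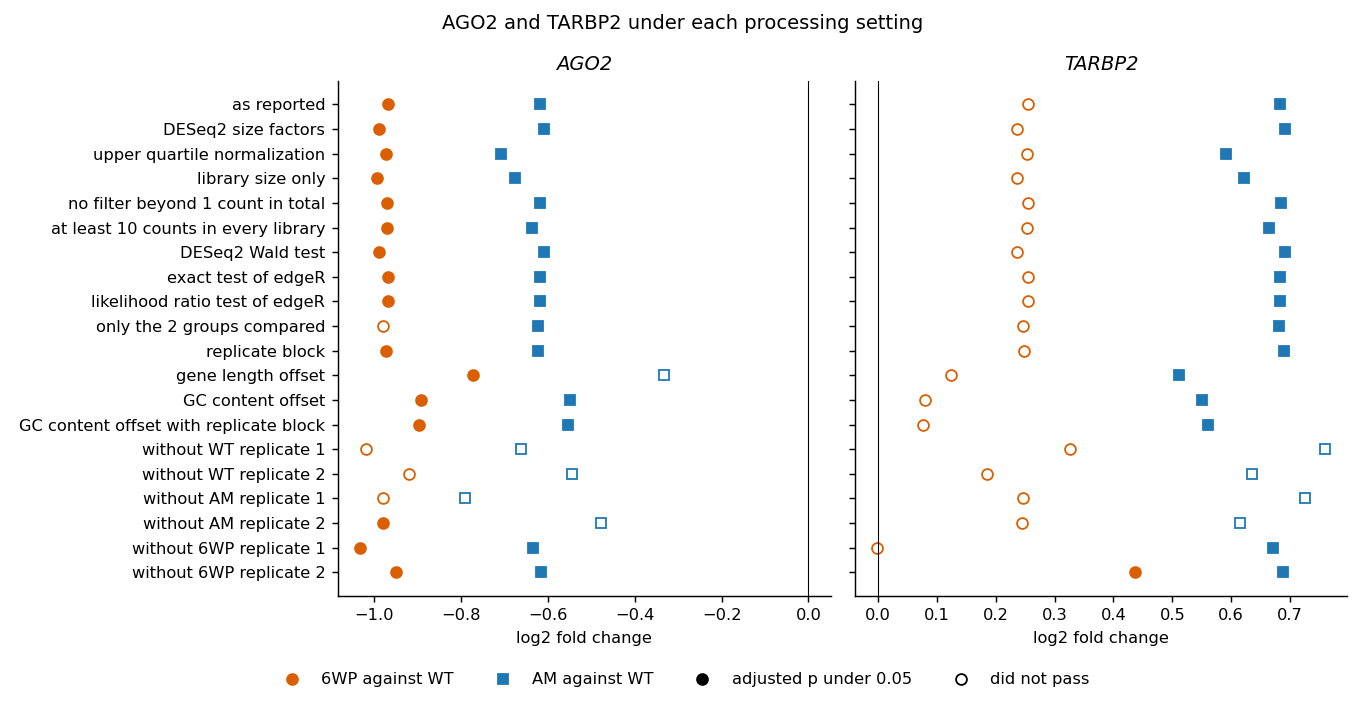
Log2 fold change of AGO2 and TARBP2 (horizontal axes) as reported and under 19 other settings (rows), for 6WP against WT (circles) and AM against WT (squares); filled symbols passed an adjusted p of 0.05. All AGO2 values lie below 0, between -1.03 and -0.33, and the squares of TARBP2 lie between 0.51 and 0.76.

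Over the 19 other settings, AGO2 in 6WP against WT ranged from -1.03 to -0.77 and was called in 15 of them. The 4 others used only the WT and 6WP libraries, or left out WT replicate 1, WT replicate 2 or AM replicate 1. The first gave adjusted p = 0.0528 (edgeR), where 0.661% of all tested genes were called, beside 3.00% as reported. Without 1 library the log2 fold change of AGO2 in 6WP against WT lay from -1.03 to -0.92. AGO2 in AM against WT was called in 14 of 19, and TARBP2 in 15 of 19. Both lost the call without any 1 of the WT or AM libraries, each of which leaves that group with 1 library. Calls over all tested genes fell in the same fits, in both comparisons with WT. Without 1 library, AGO2 in AM against WT lay from -0.79 to -0.48 and TARBP2 from 0.61 to 0.76.

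Levels can be compared between genes only per length. In WT cells and per kb of exon, XPO5 was the most abundant of the 10, with 12.0 CPM per kb, followed by DROSHA (8.53), AGO1 (6.28), TARBP2 (5.79), DGCR8 (4.32), TNRC6A (3.60), AGO4 (3.49), DICER1 (1.92), AGO2 (1.82) and AGO3 (0.303). TNRC6A and AGO4 could not be ordered, because their WT libraries overlapped, and the same held for DICER1 and AGO2. The order depended on the length used. Per kb of the longest transcript TARBP2 (12.8) moved ahead of DROSHA (12.3), with overlapping libraries, while XPO5 stayed first and AGO3 last. In AM cells TARBP2 stood at 9.29 ± 0.488 CPM per kb of exon (SD, n = 2) and DROSHA at 8.43 ± 0.567.

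Some exons of the 10 genes overlap other genes. XPO5 shares 348 bases with POLR1C and DICER1 shares 80 bases with DICER1-AS1, both on the opposite strand, and DGCR8 shares 3 bases with TRMT2A. Long noncoding RNAs on the opposite strand overlap 541 exon bases of TARBP2, 526 of DGCR8, 396 of AGO1 and 86 of AGO3, and a gene model on the same strand overlaps 47 bases of AGO2. These 5 have no row in the count table used here. The libraries were stranded, but the strand setting of the counting is not given in the sources used here, so reads over these bases are uncertain. In the order AM against WT, 6WP against AM and 6WP against WT, the log2 fold changes were 0.09, -0.23 and -0.14 for POLR1C, 0.31, 0.07 and 0.38 for TRMT2A and 0.03, 0.09 and 0.12 for DICER1-AS1, and none passed. DGCR8 exons also hold the hairpins MIR3618 and MIR1306, on the same strand, which had 0 counts in all libraries. Of 1451 microRNA symbols in the table, 1250 were at 0 in every library and 10 passed the filter, and all of them together held 298 to 531 counts in a library. The count table therefore says nothing of mature microRNA levels.

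The other genes of the pathway were taken as 134 symbols in 10 lists, of which 133 were in the table and 117 were tested. The PIWI genes PIWIL1 to PIWIL4, the germline argonautes, did not pass the filter. In 6WP against WT, 2 of the 117 were called (1.71%, beside 3.00% of all tested genes). AJUBA, a LIM protein that binds argonautes, was higher (log2 fold change 1.03, standard error 0.20, adjusted p = 0.0387), at 47.3 and 43.4 CPM in WT and 73.3 and 111.5 CPM in 6WP cells. It was also higher in AM cells, at 86.0 and 72.8 CPM (0.81 against WT, adjusted p = 0.0293). ANKRD52, part of the phosphatase that removes phosphates from AGO2, was lower in 6WP cells, at 112.9 and 111.9 CPM beside 158.2 and 167.0 CPM in WT (-0.53, standard error 0.11, adjusted p = 0.0464). In AM cells ANKRD52 was at 135.4 and 118.3 CPM (-0.36 against WT, adjusted p = 0.0586). Over 19 other settings of 6WP against WT, AJUBA was called in 13 and ANKRD52 in only 9.

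In 6WP against AM, 36 of the 117 were called (30.8%, beside 21.3% of all tested genes), 32 of them lower and 4 higher. The chaperones that load small RNAs into argonautes had 9 of 12 lower and 0 higher, with a median log2 fold change of -0.61, beside 0.05 over all tested genes. HSP90AA1, the inducible cytosolic HSP90, was at 3229 and 3218 CPM in AM, 1362 and 2148 CPM in 6WP, and 2643 and 2284 CPM in WT cells (6WP against AM -0.88, standard error 0.20, adjusted p = 0.0225). FKBP4 and STIP1, which assist HSP90, had -0.72 and -0.60 (adjusted p = 0.00546 and 0.00740). HSP90AB1, its constitutive paralog, had -0.48 and did not pass (adjusted p = 0.128). Against WT cells the median of the 12 chaperones was -0.30 in 6WP and 0.33 in AM cells. In 6WP against WT 0 were called (beside 3.00% of all tested genes), and 6 had an unadjusted p under 0.05. The DESeq2 Wald, exact and likelihood ratio tests each called 2, beside 8.48%, 9.67% and 10.2% of all tested genes. In AM against WT 3 were called, all higher, beside 17.7% of all tested genes. Without 6WP replicate 2 the median in 6WP against WT was -0.45, and without replicate 1 it was -0.18. With only those groups in the fit, the 3 of AM against WT became 8 higher and 1 lower. In that fit 46.5% of all tested genes were called. The 3 calls were lost without any 1 of the WT or AM libraries. Without 1 library the median in AM against WT lay from 0.31 to 0.37. The count of 9 in 6WP against AM was 4 with only the groups compared, where 9.07% of all tested genes were called. It also fell without any 1 of the WT or AM libraries. Calls over all tested genes fell in the same fits. The median of the chaperones there stayed between -0.59 and -0.63. Without 6WP replicate 1 it was -0.46, and without replicate 2 it was -0.78.

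Of the genes of nuclear transport, 4 of 6 were lower in 6WP than in AM cells, with a median log2 fold change of -0.47 (66.7% called, beside 21.3% of all tested genes). The count was 1 with only the groups compared, where 9.07% of all tested genes were called. Calls were lost without either AM library and fewer were made without either WT library, as over all tested genes. The medians in these fits lay from -0.50 to -0.46. RAN, the GTPase that XPO5 needs to bind its cargo, was at 694.5 and 745.7 CPM in AM and 533.7 and 518.1 CPM in 6WP cells (-0.45, adjusted p = 0.0266). RANBP1, a RAN regulator, was at 205.8 and 229.9 CPM in AM, 139.8 and 102.8 CPM in 6WP, and 132.1 and 122.2 CPM in WT cells. It was thus higher in AM cells than in both others, with -0.84 for 6WP against AM and 0.78 for AM against WT (adjusted p = 0.0107 and 0.0157). Among 16 cofactors of DROSHA and DGCR8, 7 were lower in 6WP than in AM cells and 0 higher, ILF2 (-0.62) and SRSF3 (-0.58) among them (43.8%, beside 21.3%). That count was 1 with only the groups compared, beside 9.07% of all tested genes. Fewer were also called without any 1 of the WT or AM libraries, as over all tested genes. The medians of these cofactors in such fits lay from -0.32 to -0.24. P4HB, a subunit of the enzyme that hydroxylates AGO2, was at 1035 and 1057 CPM in AM, 521.1 and 431.0 CPM in 6WP, and 601.8 and 599.7 CPM in WT cells (6WP against AM -1.14, standard error 0.12, adjusted p = 0.00235). P4HB also serves collagen and the endoplasmic reticulum, as protein disulfide isomerase.

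Of 19 deadenylation genes, 2 were higher and 3 lower in 6WP than in AM cells (26.3%, beside 21.3% of all tested genes). The 5 calls became 1 with only the groups compared, where 9.07% of all tested genes were called. Fewer were called without any 1 of the WT or AM libraries and more without either 6WP library, as over all tested genes. The median log2 fold change was -0.07 as reported and lay from -0.22 to -0.05 without 1 library. PABPC1, the poly(A)-binding protein, was at 2313 and 2377 CPM in WT, 1514 and 1578 CPM in AM, and 2124 and 2972 CPM in 6WP cells. It was lower in AM than in WT cells (-0.60, adjusted p = 0.0408) and higher in 6WP than in AM cells (0.72, adjusted p = 0.0206). PAN2, a deadenylase subunit that TNRC6 proteins recruit, was lower in 6WP than in AM cells (-0.73, adjusted p = 0.00549). BTG2, which brings deadenylases to mRNAs, was lower in AM than in WT cells (-0.57, adjusted p = 0.0421). Of 12 decapping and repression genes, 3 were lower in 6WP than in AM cells (EIF4E2, DCP2 and PATL1) and 0 higher (25%). These calls were lost without either AM library, when calls also fell over all tested genes. Both shares lay near the background. The 8 GW182 paralogs and partners had 0 called in 6WP against AM (0 with an unadjusted p under 0.05), as had the 5 tested genes of the list of DICER1 partners and precursor editing (PRKRA, ADARB1, ZCCHC11, ZCCHC6 and DIS3L2). Of those 5, ZCCHC6 had an unadjusted p under 0.05 (-0.45). In AM against WT, 18 of the 117 were called (15.4%, beside 17.7% of all tested genes), 11 higher and 7 lower.

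**Figure D5:**
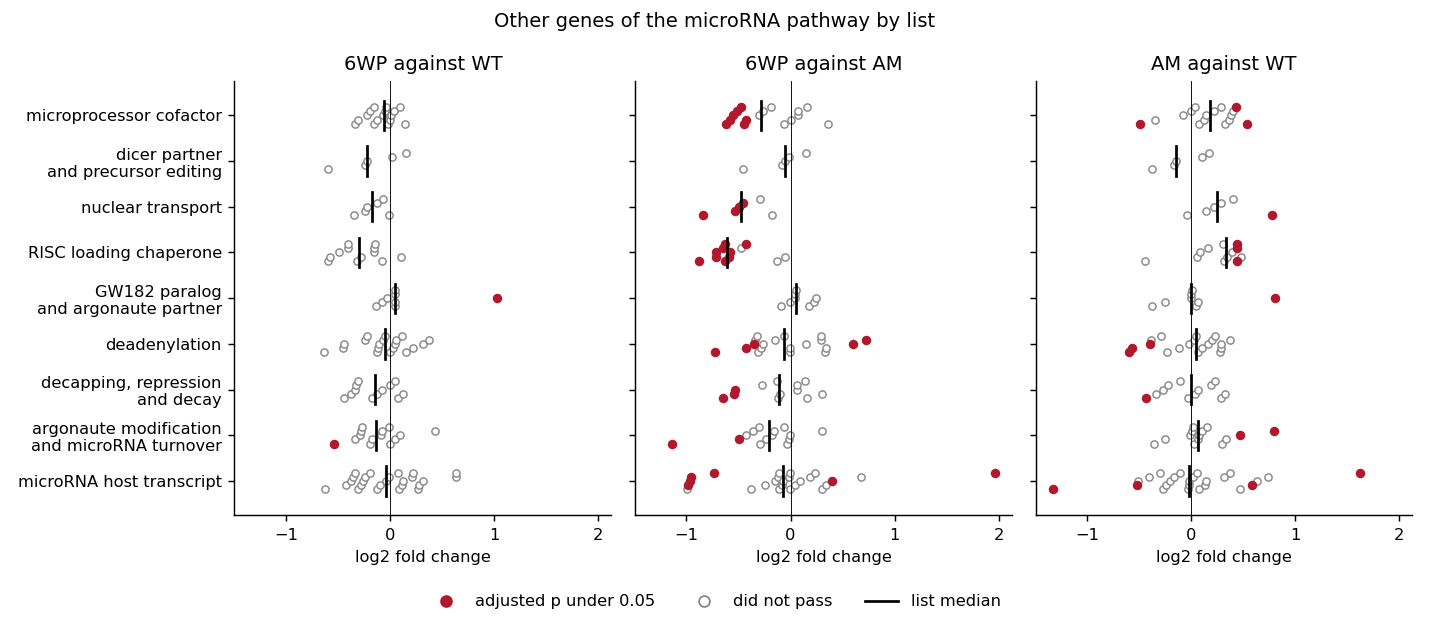
Log2 fold changes (horizontal axes) of the 117 tested genes of the pathway by list (rows) in the 3 comparisons; filled points passed an adjusted p of 0.05 (edgeR) and black lines are list medians. In 6WP against AM the chaperone median lies at -0.61, and 9 of its 12 genes are filled.

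Among the host transcripts, LINC00478 (MIR99AHG), which carries miR-99a, let-7c and miR-125b, had the largest log2 fold change of the 25 between 6WP and AM cells. It was at 8.79 and 9.09 CPM in WT, 3.62 and 3.50 CPM in AM, and 12.6 and 15.1 CPM in 6WP cells, with no overlap between groups. It was higher in 6WP than in AM cells (1.96, standard error 0.18, adjusted p = 0.00202) and lower in AM than in WT cells (-1.33, standard error 0.18, adjusted p = 0.00553), and in 6WP against WT it had 0.63 (adjusted p = 0.0840). It was called in 6WP against AM under all 19 other settings, as was P4HB. MCM7, a DNA replication helicase subunit whose introns hold the AAAGUGC pair, was at 568.4 and 527.3 CPM in WT, 828.7 and 869.3 CPM in AM, and 535.2 and 331.2 CPM in 6WP cells (6WP against AM -0.97, standard error 0.20, adjusted p = 0.0158). SMC4, a condensin subunit that holds the AGCAGCA pair, was at 115.8 and 104.2 CPM in WT, 146.9 and 138.6 CPM in AM, and 94.7 and 77.2 CPM in 6WP cells (-0.73 against AM, adjusted p = 0.00977). MCM7 and SMC4 thus had their highest levels in AM cells.

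The other hosts with calls were SREBF1, MIR22HG, MIR210HG and CTDSP2. SREBF1, the sterol and fatty acid regulator that carries miR-33b, was at 113.3 and 125.7 CPM in WT, 163.0 and 194.9 CPM in AM, and 104.3 and 80.2 CPM in 6WP cells. It was higher in AM than in WT cells (0.58, adjusted p = 0.0379) and lower in 6WP than in AM cells (-0.96, adjusted p = 0.00742). MIR22HG was at 2.95 and 2.94 CPM in WT, 5.12 and 4.74 CPM in AM, and 3.07 and 1.90 CPM in 6WP cells (6WP against AM -0.98, adjusted p = 0.0354). MIR210HG, whose microRNA is known for its induction in low oxygen, was at 0.714 and 1.19 CPM in WT, 2.496 and 3.36 CPM in AM, and 1.37 and 1.59 CPM in 6WP cells (AM against WT 1.62, standard error 0.34, adjusted p = 0.0182). Its 6WP libraries lay between the others. CTDSP2 was lower in AM than in WT cells (-0.52, adjusted p = 0.0190) and higher in 6WP than in AM cells (0.40, adjusted p = 0.0385). Most of the 6 host calls in 6WP against AM were lost without either AM library. The 4 in AM against WT were lost without any 1 of the WT or AM libraries. Calls over all tested genes fell in the same fits.

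The genes most like AGO2 across the 6 libraries, among 9800 genes with a mean of at least 3 log2 CPM, were RGP1 (Pearson's r of log2 CPM 0.997), METTL7A (0.991) and XPC (0.986), and 46 genes had r above 0.95. The points share libraries and depth, so these values describe a pattern only. METTL7A was at 287.2 and 329.7 CPM in WT, 225.5 and 180.5 CPM in AM, and 167.5 and 139.9 CPM in 6WP cells. XPC, a DNA damage sensor of nucleotide excision repair, followed the same order within a narrow range, from 66.2 and 66.4 CPM in WT to 59.1 and 58.4 CPM in 6WP cells, and did not pass (-0.17 for 6WP against WT, adjusted p = 0.358).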

How the data were processed

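Total RNA of 6 libraries (TruSeq stranded, 100 base single end reads) had been sequenced. The deposited values are raw, not normalized, counts for each gene symbol. The submitters' processing notes name STAR 2.5.3a, featureCounts 1.5.3, StringTie 1.3.3, edgeR 3.22.3, R 3.5.0 and the build hg38; the annotation and the strand setting are not given in the sources used here. Replicates were not pooled, and 0 columns were left out.

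From these counts, edgeR 4.0.16 in R 4.3.3 gave TMM factors and a quasi-likelihood test over the 14672 of 29804 symbols that passed filterByExpr. The model held the 3 groups and all 6 libraries, with no covariate. Tests were two-sided. The adjusted p is that of Benjamini and Hochberg across every tested gene, and a gene was called under 0.05. Standard errors were obtained from the log2 fold change and the root of F. The labels call the 2 libraries of a group biological replicates; separate cultures are not described, so p-values measure the spread between these libraries. The test was also run on simulated counts with the same spread in all 3 groups. That run does not cover the wider spread of the 6WP libraries.

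The genes, the lists and the naming rule were chosen with earlier results of these data known. Named were all 10 genes, the called genes of the wider lists (at most 8 per comparison, by size), TNRC6B, TNRC6C and PRKRA, genes with overlapping exons, and the 3 genes most like AGO2. Other genes of the lists (FKBP4, STIP1, HSP90AB1, RAN, ILF2, SRSF3, PAN2, EIF4E2, DCP2, PATL1 and CTDSP2) were named after their values were seen. Lengths, GC content and positions came from GENCODE v44 on GRCh38 (23257 symbols matched, 93.4% of tested genes with a length). DESeq2 1.42.0, other normalizations and filters, other edgeR tests, a replicate block, length and GC terms (loess span 0.5) and fits without each library were the alternatives. Methylation and proteomics were not analysed here. Some cell type markers are not reported here.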

Additional observations from a re-analysis of the deposited data

How the results depend on the processing

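No called log2 fold change of the 10 genes turned its sign under the 19 other settings, and among 570 recomputed values 25 changed sign, all of them differences that had not passed in that comparison. Counts of genes called in 6WP against WT, for the 10 genes, the 117 and all genes, were 1, 2 and 440. They became 2, 11 and 1419 with the exact test, 2, 11 and 1492 with the likelihood ratio test, and 0, 0 and 96 with only the groups compared. The last 2 became 6 and 894 without the filter and 10 and 1124 with DESeq2. The count of 2 was 1 with upper quartile scaling or with library size only. In 6WP against AM, only the groups compared gave 15 of the 117 and 1309 of all genes (36 and 3131 as reported), and the GC term with replicate block gave 1 of the 10, TARBP2 (-0.48, adjusted p = 0.0395 with edgeR). In AM against WT, 18 of the 117 became 29 with DESeq2 and 60 with only the groups compared, where all genes went from 2593 to 6620, and the length term left 1 of the 10.

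Leaving out 1 library at a time, the 10 genes gave 0 to 8 calls in 6WP against WT, 0 to 4 in 6WP against AM and 0 to 3 in AM against WT. The 117 gave 0 to 38, 2 to 65 and 0 to 59, and all genes 0 to 3870, 116 to 6807 and 67 to 6654. The sign turned in such fits, in 6WP against WT, for AGO4 (-0.59 to 0.0556), DGCR8 (-0.28 to 0.0843), DICER1 (-0.59 to 0.17) and TARBP2 (-0.0014 to 0.44). In 6WP against AM it turned for AGO1 (-0.30 to 0.15), DICER1 (-0.72 to 0.0638) and TNRC6A (-0.36 to 0.18), and in AM against WT for DROSHA (-0.0974 to 0.0354) and DICER1 (-0.0163 to 0.23). Upper quartile scaling, which moved the median of all genes in 6WP against AM to 0.137, turned AGO1 (0.0460) and TNRC6A (0.0401). The length term turned DICER1 in 6WP against WT (0.0105), and in AM against WT AGO1 (0.113), AGO3 (0.0702), DROSHA (0.0566), XPO5 (0.0378) and TNRC6A (0.0139). The GC term turned DROSHA (0.0564) and XPO5 (0.0121) in AM against WT, and with the block the values were 0.0562 and 0.0121. The causes were not tested.

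The r of deviations between same-numbered libraries was 0.0395 for WT and AM, 0.0873 for WT and 6WP and -0.0206 for AM and 6WP. Whether same-numbered libraries were grown or handled together was not tested. With the replicate block the 10 genes gave 1, 0 and 2 calls, AGO2 in 6WP against WT had -0.97 (adjusted p = 0.0255 with edgeR), all genes gave 393, 3069 and 2485, and the 117 gave 1 call in 6WP against WT, or 0 with the GC term. Argonaute shares moved with the length used. In WT, AM and 6WP cells, without length correction AGO1 held 59.0%, 65.7% and 64.9%, AGO2 19.3%, 15.7% and 12.9%, AGO3 4.29%, 4.56% and 3.40%, and AGO4 17.4%, 14.01% and 18.8%. By the longest transcript AGO1 held 52.3%, 59.7% and 56.5%, AGO2 16.1% in WT and 13.4% in AM, AGO3 2.89% in AM and AGO4 24.0% in AM. Without 1 library the shares of AGO1 were 52.7% to 52.9%, 59.9% to 60.4% and 56.7% to 57.0%. Depth limits AGO3 most, with 105 to 168 counts in a library.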
